A study of Homo sapiens with 48 samples.

Results

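The 40 genes described here encode the core machinery of autophagy and the receptors that carry cargo into it. They were chosen by name, and their rows were taken from a matrix of 33892 gene rows. The matrix holds raw read counts from 48 RNA libraries of 8 established human cancer cell lines. RKO and DLD-1 derive from colon cancer, H-23 and H-1299 from lung cancer, PANC-1 and CAPAN-2 from pancreatic cancer, and H-929 and RPMI from multiple myeloma. Every line received for 24 h either the solvent DMSO or carfilzomib, a drug that blocks the proteasome by binding it permanently, with 3 biological replicates in each of the 16 groups. The drug was given at the IC50 of proteasome activity, and the molar concentrations were not used here. The libraries measured RNA in cells in culture, not protein and not the flow of cargo through autophagy.

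Autophagy encloses cytoplasm in a membrane vesicle, the autophagosome, and delivers it to the lysosome for degradation. A kinase complex around ULK1 starts the process, a lipid kinase complex marks the membrane with the lipid PI3P, lipid transfer proteins let the membrane grow, and a conjugation system attaches proteins of the ATG8 family to it. Cargo receptors bind ubiquitin on proteins or organelles with one end and ATG8 proteins with the other. The proteasome also degrades proteins tagged with ubiquitin, so both routes draw on the same label. The comparison of the treatments asks how cancer cells of several origins respond when the proteasome is inhibited.

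Depth ran from 9.12 to 64.4 M counts per library (M, 1e6), and the treated H-929 libraries were the shallowest, with 9.12 to 9.93 M against 14.6 to 18.9 M in DMSO. Markers of plasma cells summed to between 6933 and 7492 CPM (counts per 1e6 counts of a library) in the DMSO libraries of H-929 and between 2935 and 3194 CPM in those of RPMI, and reached at most 580 CPM in the other 6 lines. Epithelial markers were low in RKO, with a sum between 128 and 152 CPM and KRT19 at 0. The colon markers CDX1 and LGALS4 were at 0 in RKO and had DMSO means of at most 0.270 CPM in any line. The remaining colon marker, CDX2, was highest in the colon lines, at 115 CPM in DLD-1 and 20.9 CPM in RKO, against at most 12.6 CPM elsewhere. CDH1 was at 0 in H-1299, whose epithelial sum lay between 969 and 1065 CPM. In H-1299 that sum was 360 to 399 CPM after the drug, and mesenchymal markers summed to 3505 to 3884 CPM before and 2293 to 2377 CPM after it; the part of either in the results of this line was not tested. Rows for SQSTM1 and ATG16L1 carry Ensembl identifiers that GENCODE release 29 does not hold, and each shares its identifier with a further row of the same symbol and a suffix, so their values are uncertain. The other 38 genes were found in that annotation.

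Without the drug, levels differed widely between genes and, for some genes, between lines. Levels between genes are compared as CPM per kb of exon, which corrects for length. VMP1, a protein of the endoplasmic reticulum that moves lipids between membrane leaflets, had the highest mean over the lines, 55.2 CPM per kb. It was also among the most variable, with 160 ± 9.05 (SD, n = 3) in CAPAN-2 and 6.85 ± 0.365 in H-929, a ratio of 23.4. TAX1BP1 followed with 29.1 and RB1CC1 with 27.9 CPM per kb. The order of these neighbours depended on the line, since TAX1BP1 stood at 94.3 ± 4.04 in DLD-1 and 13.1 ± 0.607 in RKO, while RB1CC1 had 23.5 ± 0.595 and 26.9 ± 1.31 there.

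At the low end stood ATG9B with a mean of 0.627 CPM per kb and ULK2 with 2.77. ATG9B reached 3.49 ± 0.707 CPM per kb in CAPAN-2 and was at or below 0.756 in the other lines, while its relative ATG9A held at least 12.4 in 7 lines and 23.1 in PANC-1. ULK2 was nearly absent from H-929, where the DMSO libraries held 2, 1 and 0 counts. DRAM1, a lysosomal membrane protein, was lowest in the myeloma lines, with 0.687 CPM per kb in RPMI against 9.84 in CAPAN-2. ATG13, with line means from 7.41 to 12.9, was the gene whose level varied least between the lines.

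**Figure D1:**
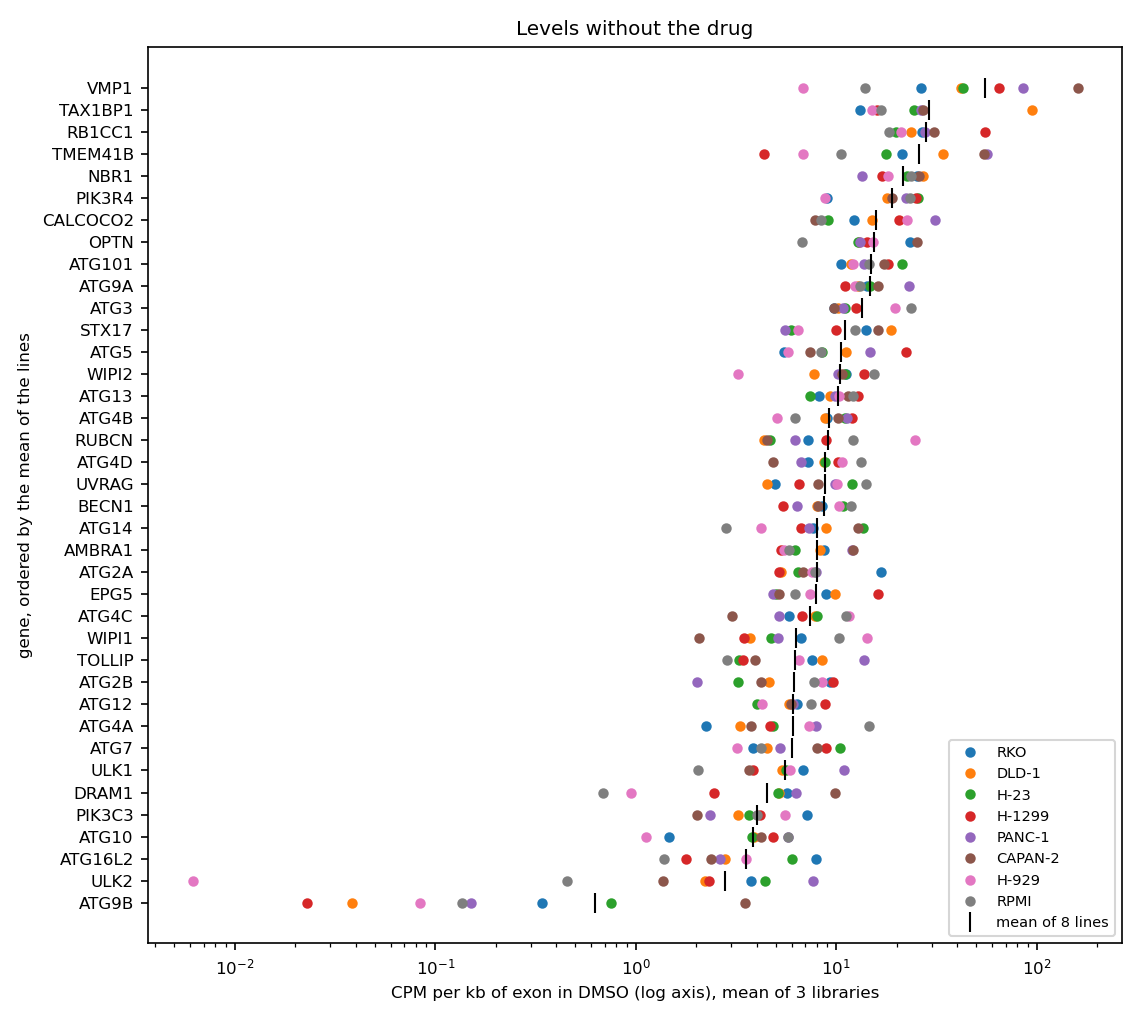
Levels in the DMSO libraries of the 38 genes found in the annotation, as CPM per kb of exon on a logarithmic axis. Each coloured point is the mean of 3 libraries of a line and the black bar is the mean of the 8 lines. VMP1 stands highest, at 55.2 on average, and ATG9B lowest, at 0.627, with ULK2 far below its other values in H-929.

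After carfilzomib, few of the genes were called in the colon lines and most of them in H-1299, CAPAN-2 and RPMI. A gene was called when its adjusted p in edgeR's quasi-likelihood F test, fitted to all genes of the line, was under 0.05. In RKO, 4 of 39 tested genes of the list (10.3%) were called higher and 0 lower, beside 3.62% and 5.28% of all tested genes. In DLD-1 the counts were 8 higher (20.5%) and 0 lower of 39, beside 10.9% and 12.1%. H-23 had 22 higher (57.9%) and 2 lower (5.26%) of 38, beside 17.7% and 16.2%.

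In H-1299, 28 of 38 were called higher (73.7%) and 5 lower (13.2%), beside 29.8% and 31.3% of all tested genes. PANC-1 had 16 higher and 7 lower (17.9%) of 39, beside 20.5% and 18.2%. In CAPAN-2 there were 27 higher (69.2%) and 7 lower (17.9%) of 39, beside 25.7% and 26.7%. The 2 myeloma lines differed from each other in their counts. H-929 had 9 higher (23.7%) and 10 lower (26.3%) of 38, beside 26.4% and 26.2%, so in this fit both shares were near those of all genes. RPMI had 26 higher (66.7%) and 10 lower (25.6%) of 39, beside 31.3% and 32.2%. When the same contrasts were taken from a fit of all libraries, PANC-1 had 10 of 39 higher and 4 lower (10.3%), beside 9.23% and 7.74% of all genes in that fit. H-929 then had 10 higher and 18 lower (46.2%), beside 28.1% and 28.7%, so there the share called lower was above that of all genes.

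The share called higher was therefore above that of all tested genes in 7 lines and not in H-929. In RKO this rested on 4 calls and is uncertain. The calls of ATG16L2 and NBR1 there were each lost in 3 of the 6 fits that leave out a library, and SQSTM1 is taken up below. The median log2 fold change of the list was 0.46 in H-1299, 0.35 in RPMI, 0.30 in CAPAN-2 and 0.15 in H-23. It was 0.09 in PANC-1, 0.07 in RKO, 0.01 in DLD-1 and -0.01 in H-929, while the median of all tested genes lay between -0.02 and 0.03 in every line. Most changes were modest: a called rise of at least 2-fold was found for 6 genes each in H-1299 and CAPAN-2, 4 in RPMI, 2 in H-929, 1 each in RKO, DLD-1 and PANC-1, and 0 in H-23. The 1 in RKO was SQSTM1, whose summed rows did not rise there. Rises of at least 2-fold were not counted over all tested genes, so these counts cannot show a trait of the list. In bulk RNA, a change in the RNA of each cell and a change in the share of cells that carry it cannot be told apart.

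**Figure D2:**
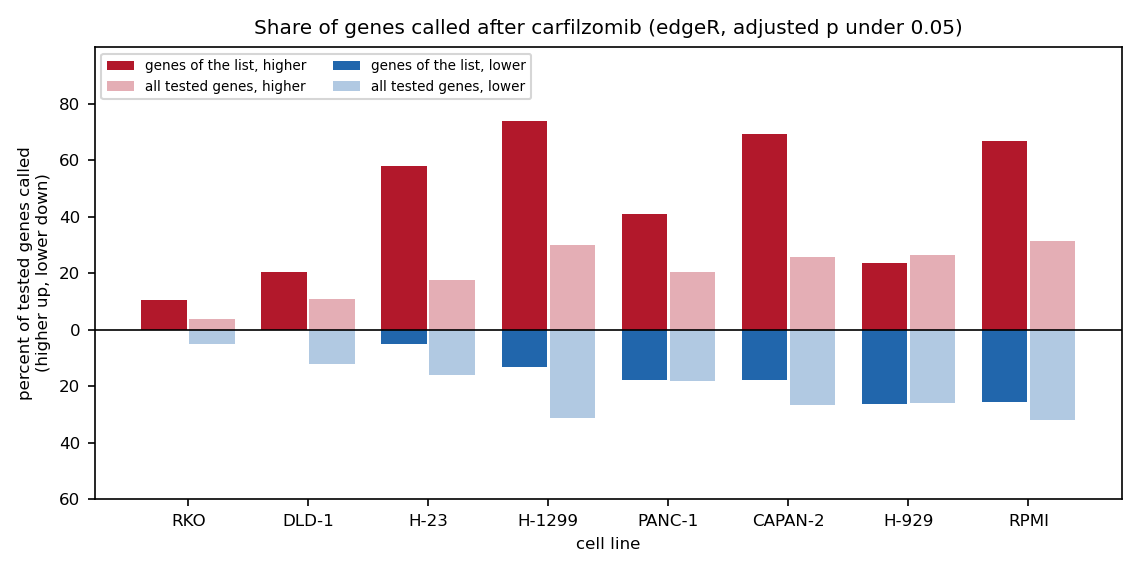
Percent of tested genes called higher (upward bars) and lower (downward bars) in each line, for the 40 genes (dark bars) and for all tested genes (pale bars). The dark upward bar exceeds the pale one in every line but H-929, where 23.7% stands beside 26.4%.

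Across lines, 36 of the 40 genes were tested in all 8 fits. ATG2A was called higher in 8 of 8 lines and ATG4A in 6, which makes 2 of 36 genes called higher in at least 6 lines, beside 4.06% of all genes tested in every line. SQSTM1, which was not tested in H-23, was also called higher in 6, among them RKO, where the sum of its own and its companion row had a log2 fold change of -0.30. Calls of a fall in at least 6 lines numbered 0, beside 4.26%. Of the 36 genes, 17 (47.2%) were called higher in at least 1 line and lower in at least 1 other, close to the 47.8% of all genes tested in every line.

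A fit of all 48 libraries tested 39 of the genes, leaving out ATG16L1 for low counts. The average of the 8 responses was called higher for 25 and lower for 6, beside 19.8% and 23.9% of all genes in that fit, and the median average was 0.12. Every one of the 39 was called for a response that differs between lines, as were 67.7% of all genes. With rows of one identifier summed, ATG16L1 could be tested too, and the count was 40. With the cell lines as the units of replication, limma called 0 of the 36 genes tested in every line, beside 0.878% of all genes there. An unadjusted p under 0.05 was found for 11 of the 36, beside 2755 of the 11622 genes tested in every line. The averages therefore describe these 8 lines and their replicates.

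**Figure D3:**
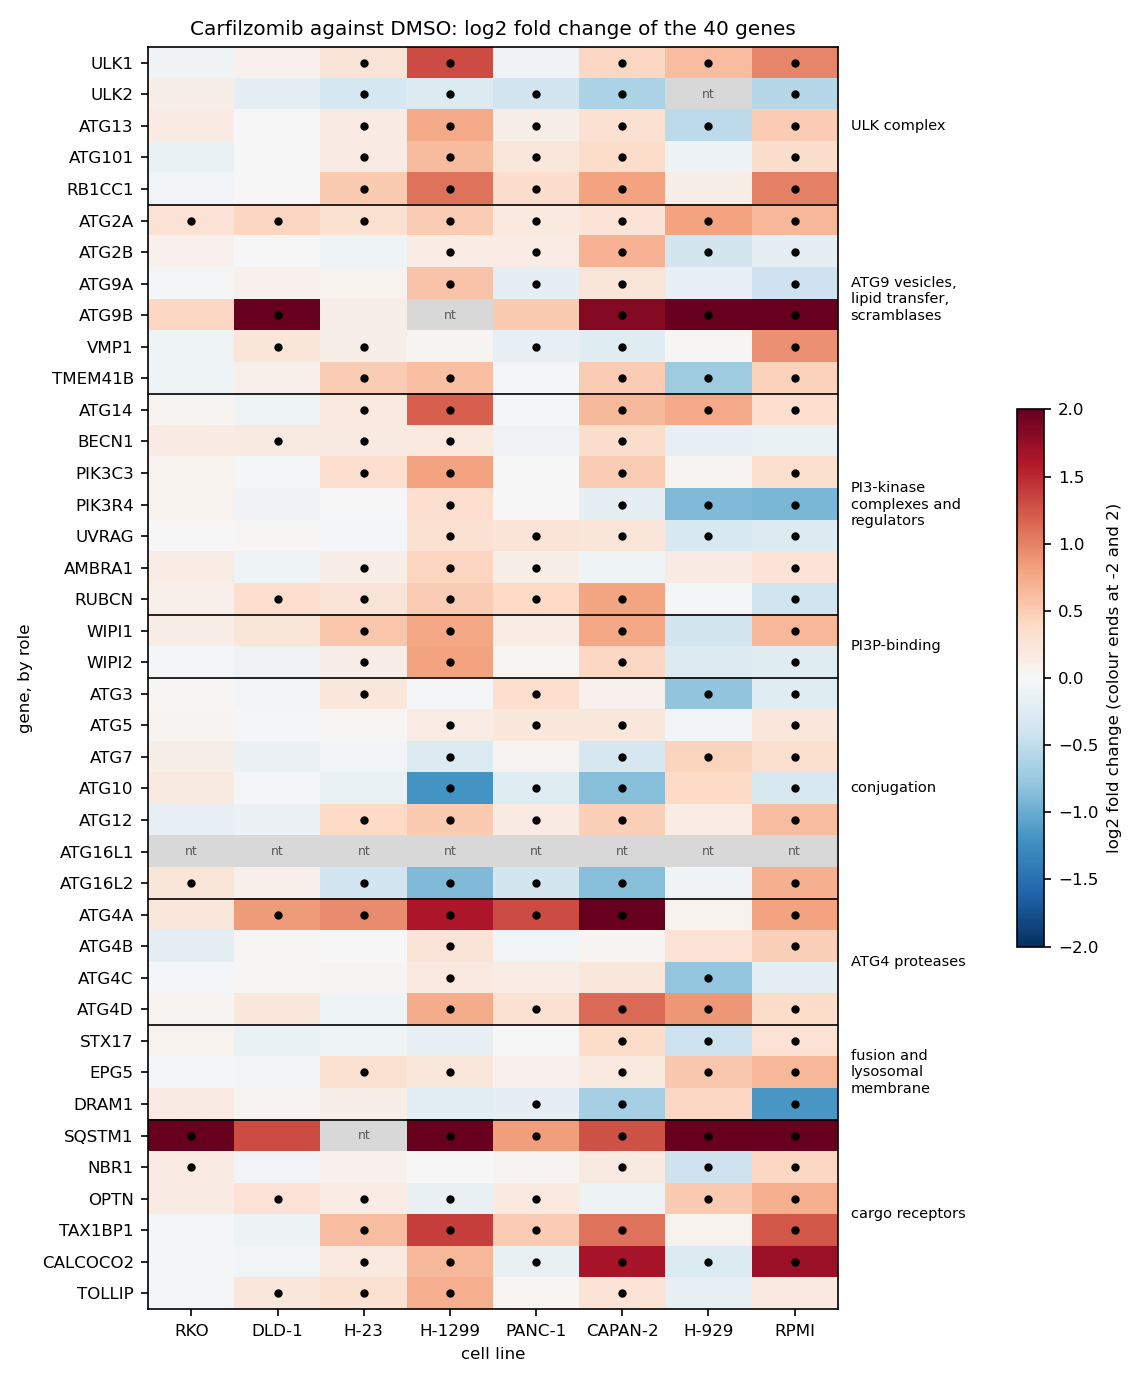
Log2 fold change of carfilzomib against DMSO for the 40 genes (rows, grouped by role) in the 8 lines (columns). A black dot marks an adjusted p under 0.05, nt a gene not tested for low counts, and the colour ends at -2 and 2. ATG2A carries a dot in all 8 columns, and H-929 holds blue cells in some rows, such as ATG13 and TMEM41B, that are red in H-1299, CAPAN-2 and RPMI.

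The ULK complex, which receives the signal to begin, was called higher in 20 of 39 tests over its 5 genes and 8 lines (51.3%), and lower in 6 (15.4%). Pooled over the lines, 20.8% of the tests of all genes were called higher and 21.1% lower, and the counts of the other groups are read against these shares. Tests of one gene in several lines and of several genes in the same libraries are not independent. ULK1, the kinase itself, rose in 5 lines. In H-1299 its DMSO libraries held 27.6, 28.5 and 25.1 CPM and the carfilzomib libraries 71.4, 69.5 and 61.0 CPM. The treated libraries all stood above the controls, a log2 fold change of 1.31 ± 0.073 (SE, adjusted p = 9.7e-09). The rise was 0.98 ± 0.096 in RPMI, 0.61 ± 0.13 in H-929, 0.42 ± 0.084 in CAPAN-2 and 0.26 ± 0.042 in H-23.

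ULK2, the related kinase, went the other way and fell in 5 lines. PANC-1 had 73.2, 77.8 and 75.6 CPM in DMSO and 57.4, 60.6 and 55.6 CPM in carfilzomib, with no overlap (-0.38 ± 0.043, adjusted p = 1.7e-05). In CAPAN-2 the log2 fold change was -0.64 ± 0.10. The falls in H-1299 (-0.28 ± 0.11) and RPMI (-0.57 ± 0.19) were lost in 4 and in 2 of the 6 fits that leave out a library. ULK1 and ULK2 thus stood on opposite sides of 0 in H-23, H-1299, CAPAN-2 and RPMI, each called there.

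RB1CC1, the scaffold of the complex, and TAX1BP1, a cargo receptor that binds it, responded in the same 5 lines. The Pearson correlation of their log2 fold changes over the 8 lines was 0.995, the highest among 630 pairs of the 36 genes, whose median was 0.26. This is a description over 8 points whose members share libraries, and the pair was picked for its likeness. RB1CC1 in H-1299 had 399, 367 and 393 CPM in DMSO and 814, 799 and 835 CPM in carfilzomib. In RPMI it had 133, 121 and 120 CPM, then 235, 257 and 254 CPM. Neither line showed overlap, and the log2 fold changes were 1.08 ± 0.043 and 1.00 ± 0.059.

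Smaller rises of RB1CC1 were seen in CAPAN-2 (0.81 ± 0.056), H-23 (0.53 ± 0.041) and PANC-1 (0.35 ± 0.040). In RKO, DLD-1 and H-929 it was not called, with values of -0.05, 0.01 and 0.11. ATG101, which stabilises ATG13 in the complex, rose in the same 5 lines, by 0.17 to 0.64, with the call in H-23 lost in 2 of the 6 fits that leave out a library. ATG13, the regulatory subunit, rose in these 5 lines as well, by up to 0.75 ± 0.048 in H-1299, and its call in PANC-1 was lost in 2 such fits. In H-929 ATG13 fell: its libraries held 70.4, 64.0 and 67.2 CPM in DMSO and 42.2, 48.1 and 50.2 CPM in carfilzomib (-0.52 ± 0.10, adjusted p = 0.00060).

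Membrane supply depends on ATG9 proteins, which scramble lipids in small vesicles, and on ATG2 proteins, which transfer lipids into the growing membrane. ATG2A rose everywhere, by 1.14-fold in PANC-1 to 1.74-fold in H-929. H-929 had 56.8, 51.9 and 57.8 CPM in DMSO and 104, 92.2 and 92.8 CPM in carfilzomib (0.80 ± 0.093, adjusted p = 6.7e-06). RPMI had 53.6, 55.9 and 55.3 CPM, then 91.4, 82.8 and 88.4 CPM (0.67 ± 0.056). Even in RKO, where few genes moved, 149, 139 and 152 CPM became 179, 173 and 186 CPM (0.29 ± 0.049, adjusted p = 0.0033).

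The groups did not overlap for ATG2A in any of the 8 lines, and all 8 calls were kept in every fit that left out a library. The other log2 fold changes were 0.50 in H-1299, 0.43 in DLD-1, 0.30 in H-23, 0.27 in CAPAN-2 and 0.19 in PANC-1. ATG2B, its relative of like function, showed no such pattern. It rose in CAPAN-2 (0.70 ± 0.059), H-1299 (0.15) and PANC-1 (0.15, lost in 4 of the 6 fits without a library), and fell in H-929 (-0.36 ± 0.089) and RPMI (-0.20 ± 0.054). In both myeloma lines ATG2A therefore went up while ATG2B went down. The 5 upstream windows printed here are those of genes that lead the description in this and the following paragraphs. They come from RefSeq promoter sequences on build GRCh38.p14, with bases inside the gene or another gene's exons in GENCODE 29 removed, written 5′ to 3′ on the gene's strand. Capitals mark any match to the motifs described further on.
ATG2A (chr11:64917249-64917409, minus strand, no match): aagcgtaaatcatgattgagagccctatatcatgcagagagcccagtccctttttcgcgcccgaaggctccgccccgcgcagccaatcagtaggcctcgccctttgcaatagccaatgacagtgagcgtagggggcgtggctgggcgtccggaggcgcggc
ATG4A (chrX:108091619-108091667, plus strand, no match): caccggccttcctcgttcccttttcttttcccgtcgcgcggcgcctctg
ATG9B (chr7:151024500-151024699, minus strand, antioxidant response element): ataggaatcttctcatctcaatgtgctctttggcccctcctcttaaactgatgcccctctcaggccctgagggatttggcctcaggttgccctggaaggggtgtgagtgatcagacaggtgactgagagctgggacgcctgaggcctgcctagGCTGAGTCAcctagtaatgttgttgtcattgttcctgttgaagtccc
CALCOCO2 (chr17:48830835-48830987, plus strand, antioxidant response element): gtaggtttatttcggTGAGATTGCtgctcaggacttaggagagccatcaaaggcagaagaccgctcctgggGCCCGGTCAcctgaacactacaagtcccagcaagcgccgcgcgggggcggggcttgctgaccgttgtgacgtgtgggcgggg
PIK3R4 (chr3:130746830-130747029, minus strand, heat shock element): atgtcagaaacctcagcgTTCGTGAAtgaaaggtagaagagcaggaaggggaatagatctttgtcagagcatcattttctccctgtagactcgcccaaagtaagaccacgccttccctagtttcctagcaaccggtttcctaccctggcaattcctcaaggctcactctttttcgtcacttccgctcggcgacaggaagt

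ATG9B showed the largest change of the list. In DLD-1 its counts were 11, 10 and 6 in DMSO and 340, 256 and 273 in carfilzomib, or 0.251 ± 0.0714 and 10.1 ± 1.59 CPM (SD, n = 3). In RPMI they were 18, 23 and 17, then 753, 730 and 871, or 0.774 ± 0.295 and 38.2 ± 3.69 CPM. Every treated library stood far above every control, with log2 fold changes of 5.32 ± 0.22 in DLD-1 and 5.73 ± 0.18 in RPMI. H-929 went from 6, 10 and 9 counts to 60, 75 and 55 (3.74 ± 0.39), and CAPAN-2 rose from 20.6 ± 4.15 to 74.2 ± 1.92 CPM (1.84 ± 0.10).

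ATG9B was not called in RKO (0.42 ± 0.28), H-23 (0.12 ± 0.14) or PANC-1 (0.52 ± 0.21). In H-1299 it held at most 16 counts in any library and was not tested. The exons of ATG9B share 786 bases, 12.3% of its exon length, with NOS3 on the opposite strand. NOS3, the endothelial nitric oxide synthase, was called higher in DLD-1 (2.16 ± 0.29), RPMI (2.42 ± 0.25), CAPAN-2 (1.10 ± 0.19), PANC-1 (0.72 ± 0.18) and RKO (0.44 ± 0.11). It fell in H-1299 (-1.45 ± 0.28) and was not tested in H-929, where its counts were 0, 0 and 3, then 3, 23 and 8. Whether the counting used strand is not given in the sources used here, so reads of the shared bases cannot be assigned. NOS3 held fewer counts than ATG9B in the treated libraries of DLD-1 (81, 50 and 54) and also in those of RPMI.

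ATG9A, the form found in most tissues, changed little and in both directions. It rose in H-1299 (0.57 ± 0.063) and CAPAN-2 (0.24 ± 0.059), and fell in RPMI (-0.41 ± 0.067) and PANC-1 (-0.19 ± 0.048). Its start lies 40 bases from that of ANKZF1, a gene on the opposite strand. ANKZF1 rose in H-1299 (0.83), CAPAN-2 (0.47) and RPMI (0.42) and fell in PANC-1 (-0.17). It also rose in H-929 (0.25) and DLD-1 (0.16), where ATG9A was not called (-0.16 and 0.09). In RPMI the neighbours therefore moved in opposite directions.

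VMP1 and TMEM41B, both lipid scramblases of the endoplasmic reticulum, also differed between lines. VMP1 rose in RPMI from 85.4, 85.2 and 84.7 to 163, 155 and 165 CPM (0.92 ± 0.050, adjusted p = 2.7e-09). It also rose in DLD-1 (0.24 ± 0.061) and H-23 (0.12 ± 0.034), calls lost in 4 and in 3 of the 6 fits without a library. It fell in CAPAN-2 (-0.25 ± 0.055) and PANC-1 (-0.17 ± 0.032), the lines with its highest untreated levels. H-1299, next with 64.6 CPM per kb, and H-929, lowest with 6.85, were not called (0.05 and 0.02). The untreated level enters the fold change, and a link between them was not tested. TMEM41B rose in H-1299 (0.60), H-23 (0.51), CAPAN-2 (0.51) and RPMI (0.46). In H-929 it fell from 30.4, 25.9 and 27.8 to 17.7, 18.4 and 15.2 CPM (-0.71 ± 0.14, adjusted p = 0.00049).

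**Figure D4:**
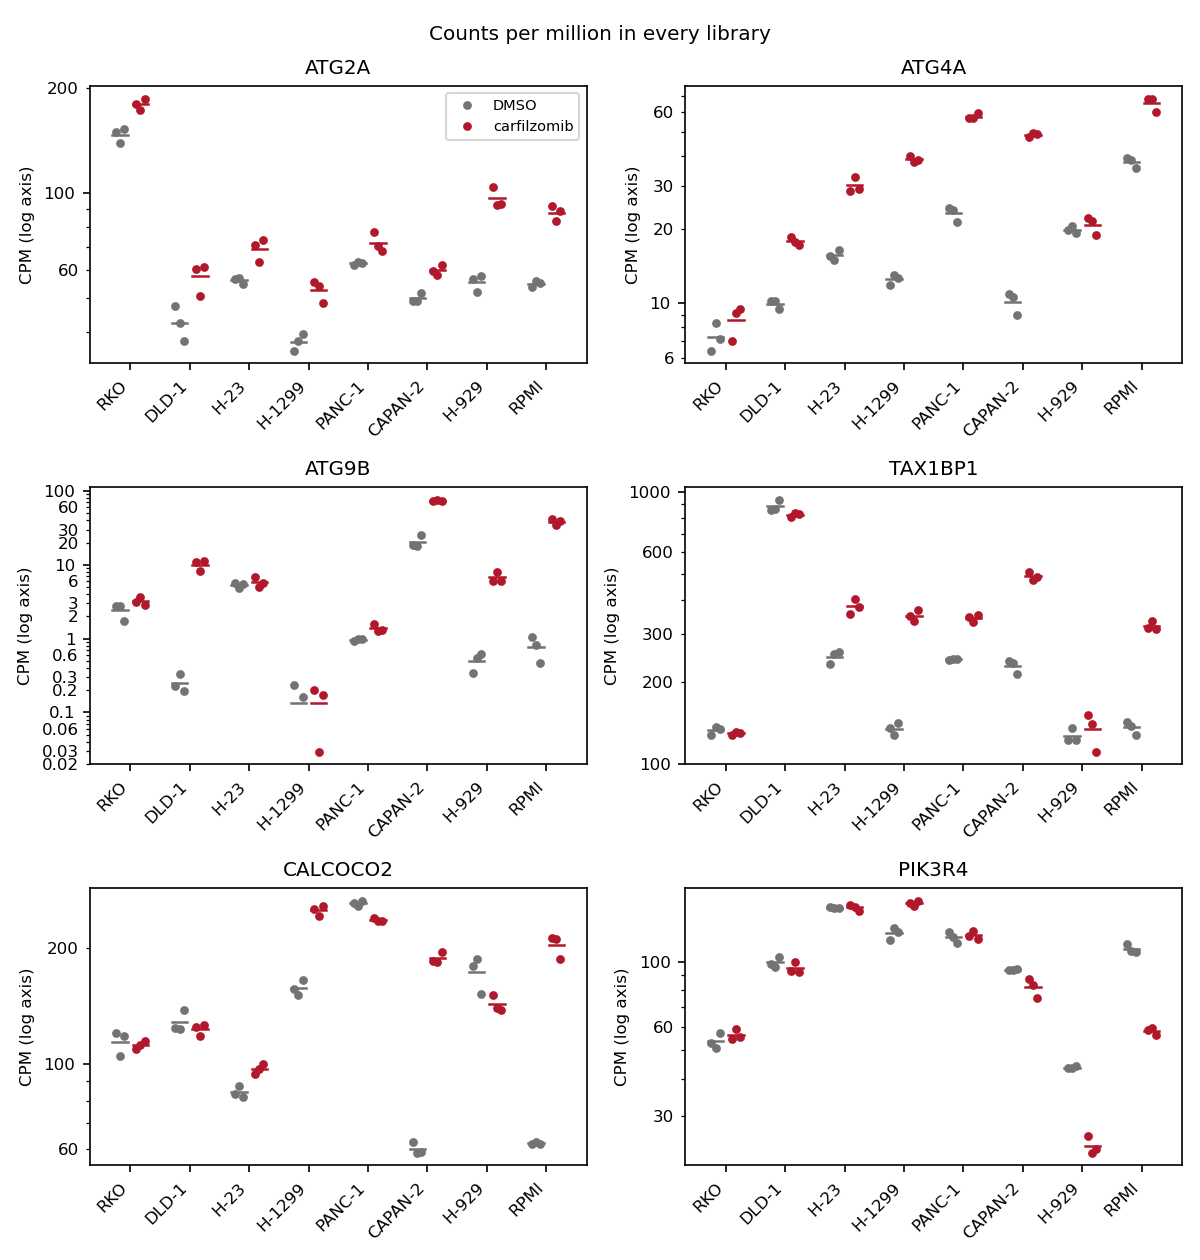
CPM in every library for 6 genes, on logarithmic axes, with DMSO in grey and carfilzomib in red and a bar at the mean of 3 libraries. A library with 0 counts of ATG9B in H-1299 DMSO is not drawn but enters the mean. ATG2A is higher in all treated groups, ATG9B separates widely in DLD-1, H-929 and RPMI, and PIK3R4 is lower in H-929 and RPMI.

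The lipid kinase complexes contain PIK3C3, the catalytic subunit, PIK3R4, its regulatory partner, and BECN1. ATG14 directs the complex to sites of autophagosome formation, while UVRAG takes its place in a complex on endosomes. Over the 7 genes of this group and the 8 lines, 26 of 56 tests were called higher (46.4%) and 6 lower (10.7%), beside the pooled 20.8% and 21.1%. In H-1299 all 7 rose.

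ATG14 rose in 5 lines. In H-1299 it went from 32.8, 30.1 and 30.2 to 68.8, 73.1 and 71.2 CPM (1.19 ± 0.057, adjusted p = 2.9e-09). In H-929 it went from 18.8, 19.8 and 20.4 to 30.5, 33.7 and 35.6 CPM (0.76 ± 0.12), with no overlap in either line. CAPAN-2 (0.65), RPMI (0.33) and H-23 (0.19) followed, though 3 of the 6 leave-one-out fits of RPMI did not call it. UVRAG rose in H-1299 (0.31), PANC-1 (0.26) and CAPAN-2 (0.24) and fell in H-929 (-0.30) and RPMI (-0.27). The partners that define the 2 complexes were thus called in opposite directions in both myeloma lines, although the fall of UVRAG in H-929 was lost without DMSO replicate 1 or 3.

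PIK3R4 carried the deepest fall among genes of this group. In RPMI its libraries held 115, 109 and 108 CPM in DMSO and 58.5, 59.8 and 56.6 CPM in carfilzomib (-0.92 ± 0.053, adjusted p = 4.4e-09). In H-929 they held 43.6, 43.5 and 44.2 CPM, then 25.6, 22.5 and 23.2 CPM (-0.88 ± 0.11, adjusted p = 1.5e-05). The treated level was 0.53 of the control level in RPMI and 0.54 in H-929, with no overlap. PIK3R4 rose in H-1299 (0.34 ± 0.046), and its fall in CAPAN-2 (-0.20 ± 0.062) was lost without carfilzomib replicate 3. The catalytic partner PIK3C3 rose in RPMI (0.32 ± 0.066) and was not called in H-929 (0.06 ± 0.087), so the subunits of this kinase did not move together there.

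BECN1 rose in 4 lines by 0.18 to 0.35 and AMBRA1, a regulator of BECN1, in 4 by 0.11 to 0.43. The calls of BECN1 in DLD-1 and of AMBRA1 in H-23 and PANC-1 were each lost in 4 of the 6 fits, and that of BECN1 in H-1299 in 1. BECN1 shares 12.39% of its exon bases with CNTD1 and 4.68% with PSME3, both on the opposite strand. The mean count of PSME3 was 2902 against 1583 for BECN1, and its part in these small rises was not tested. RUBCN, which inhibits the UVRAG complex, rose in 5 lines, from 35.8 ± 1.87 to 61.8 ± 0.175 CPM in CAPAN-2 (0.79 ± 0.059). It fell in RPMI, from 92.6 ± 4.93 to 70.4 ± 5.67 CPM (-0.40 ± 0.066, adjusted p = 0.00013).

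WIPI1 and WIPI2 bind PI3P and recruit the conjugation machinery. Both rose in H-1299 (0.78 ± 0.084 and 0.81 ± 0.046) and in CAPAN-2 (0.77 ± 0.13 and 0.41 ± 0.062). In RPMI WIPI1 rose (0.67 ± 0.096) and WIPI2 fell (-0.25 ± 0.054). In H-929 neither was called, with values of -0.37 ± 0.17 and -0.27 ± 0.14. WIPI1 shares 24.34% of its exon bases with ARSG on the opposite strand. ARSG was not called in H-23, CAPAN-2 or RPMI and fell in H-1299 (-0.79 ± 0.13).

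The conjugation system had 15 of 48 tests called higher (31.2%) and 12 lower, nearer to the pooled 20.8% and 21.1% of all genes than the ULK and PI3-kinase groups. It works like ubiquitin transfer: ATG7 activates, ATG10 passes ATG12 to ATG5, and ATG3 passes ATG8 proteins to the membrane lipid. ATG12 rose in 5 lines by 0.16 to 0.61, and ATG5 in 4 by 0.15 to 0.23. Of these, ATG5 in H-1299 was lost in 4 of the 6 fits, ATG5 in CAPAN-2 in 2 and ATG12 in PANC-1 in 1. ATG10 did not rise in any line by the test and fell in 4. In H-1299 it went from 24.7, 24.9 and 23.7 to 9.77, 10.4 and 11.7 CPM (-1.20 ± 0.087, adjusted p = 1.0e-07), with no overlap.

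In CAPAN-2 ATG10 went from 20.7, 22.7 and 20.3 to 12.1, 11.9 and 11.3 CPM (-0.85 ± 0.081). The falls in RPMI (-0.32 ± 0.10, lost without DMSO or carfilzomib replicate 2) and PANC-1 (-0.25 ± 0.056) were smaller. ATG10 shares 374 exon bases with RPS23, a ribosomal protein gene on the opposite strand whose mean count was 21003 against 578 for ATG10. RPS23 rose slightly in H-1299 (0.18 ± 0.044) and was not called in CAPAN-2, PANC-1 or RPMI.

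ATG3 fell in the myeloma lines and rose in others. In H-929 its libraries held 110, 115 and 111 CPM in DMSO and 68.5, 62.8 and 63.1 CPM in carfilzomib (-0.79 ± 0.085, adjusted p = 3.1e-06). RPMI showed a smaller fall (-0.24 ± 0.062), and PANC-1 (0.33 ± 0.044) and H-23 (0.23 ± 0.042) a rise. The negative average of ATG3 over the lines rested on H-929, since it was 0.02 without that line. ATG7 moved the opposite way in the myeloma lines, with rises in H-929 (0.44 ± 0.11) and RPMI (0.32 ± 0.077). It fell in CAPAN-2 (-0.34 ± 0.057) and H-1299 (-0.27 ± 0.056), where ATG3 was not called (0.08 and -0.03). ATG7 shares 18.07% of its exon bases with VGLL4, which rose in H-1299 (0.53), fell in RPMI (-0.24) and was not called in H-929 or CAPAN-2.

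ATG16L2, a relative of the scaffold ATG16L1, fell in 4 lines and rose in 2, of which the call in RKO was lost in 3 of the 6 fits. H-1299 went from 14.1, 13.9 and 14.2 to 7.68, 8.09 and 7.13 CPM (-0.88 ± 0.094), and CAPAN-2 from 16.7, 17.5 and 22.5 to 9.86, 10.8 and 11.1 CPM (-0.85 ± 0.11). RPMI rose from 10.7 ± 1.07 to 17.5 ± 3.04 CPM (0.71 ± 0.13, adjusted p = 0.00039). The groups did not overlap in these 3 lines. FCHSD2, which shares 7.89% of the exon bases of ATG16L2 on the opposite strand, fell in CAPAN-2 (-0.46), H-929 (-0.40), RPMI (-0.35) and H-23 (-0.23) and was not called in H-1299. ATG16L1 itself held at most 2 counts in any library and was not tested in its own row. Its companion row was called higher in H-23 (2.70 ± 0.72), where 12, 14 and 12 counts stood beside 12, 173 and 19, so the rise lay mainly in 1 library. That row was not called in DLD-1, H-1299, PANC-1 or CAPAN-2, and not tested in the other 3 lines.

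The ATG4 proteases trim ATG8 proteins before they are attached and release them afterwards. ATG4A, which prefers the GABARAP branch of that family, had the strongest response of the 4. In CAPAN-2 its libraries held 10.9, 10.6 and 8.98 CPM in DMSO and 47.6, 49.4 and 49.1 CPM in carfilzomib. This is a log2 fold change of 2.27 ± 0.078 (adjusted p = 3.7e-11), or 4.81-fold. H-1299 went from 11.9, 13.1 and 12.7 to 39.9, 37.5 and 38.4 CPM (1.62 ± 0.071), and PANC-1 from 24.5, 24.0 and 21.5 to 56.6, 56.8 and 59.4 CPM (1.31 ± 0.056).

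No library overlapped between the treatments in any of the 6 lines where ATG4A was called. The rises in H-23, DLD-1 and RPMI were 0.94 ± 0.069, 0.85 ± 0.080 and 0.80 ± 0.068. RKO (0.23 ± 0.19) and H-929 (0.07 ± 0.13) were not called, and their groups overlapped. The start of ATG4A lies 50 bases from that of PSMD10, a proteasome assembly factor on the opposite strand, and the window of 49 bases printed above is all that lies between these starts. PSMD10 rose in CAPAN-2 (0.53 ± 0.071) and fell in H-929 (-0.99 ± 0.18). It was not called in the other 6 lines, where its values lay between -0.11 and 0.09, while ATG4A rose in 5 of these.

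ATG4D rose in 5 lines, from 10.2 ± 1.03 to 22.4 ± 0.396 CPM in CAPAN-2 (1.13 ± 0.088) and by 0.86 ± 0.15 in H-929. It shares 14.97% of its exon bases with KRI1 on the opposite strand. KRI1 rose in H-929 (0.40 ± 0.076) and was not called in H-1299, PANC-1, CAPAN-2 or RPMI. ATG4B, the main protease of the family, changed least: it rose in RPMI (0.48 ± 0.072) and H-1299 (0.25 ± 0.053). ATG4C fell in H-929 from 33.4 ± 1.66 to 19.6 ± 2.80 CPM (-0.77 ± 0.13), and its rise in H-1299 (0.20 ± 0.078) was lost in 4 of the 6 fits without a library.

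**Figure D5:**
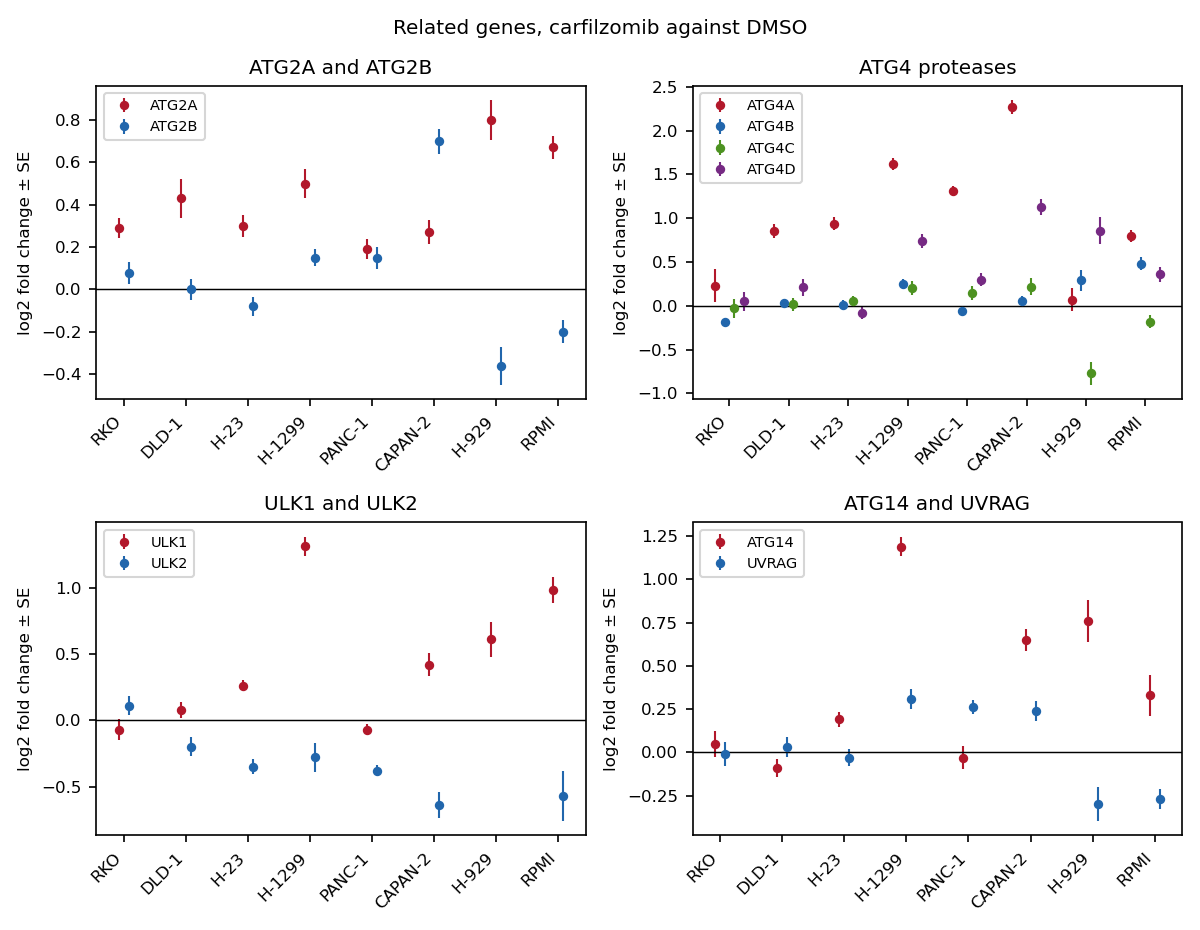
Log2 fold change ± SE in the 8 lines for 4 sets of related or alternative genes. ATG2A stays above 0 while ATG2B crosses it, ATG4A lies above the other ATG4 proteases in DLD-1, H-23, H-1299, PANC-1, CAPAN-2 and RPMI, ULK1 is above 0 and ULK2 below in H-23, H-1299, CAPAN-2 and RPMI, and UVRAG falls below 0 in H-929 and RPMI where ATG14 rises.

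Fusion with the lysosome needs STX17, a SNARE protein of the closed autophagosome, and EPG5, a tether. EPG5 rose in 5 lines, with the 2 highest values in the myeloma lines and a call in CAPAN-2 that was lost in 4 of the 6 fits. RPMI went from 74.2, 80.3 and 73.0 to 119, 115 and 127 CPM (0.66 ± 0.059), and H-929 from 92.8, 98.3 and 91.0 to 138, 142 and 129 CPM (0.54 ± 0.081). STX17 rose in CAPAN-2 (0.36 ± 0.059) and RPMI (0.29 ± 0.059), and its fall in H-929 (-0.43 ± 0.16) was lost in 4 of the 6 fits without a library. DRAM1 fell in RPMI from 2.68, 2.44 and 2.53 to 1.21, 1.17 and 1.03 CPM (-1.16 ± 0.25, adjusted p = 0.0011), a low level in either state. In CAPAN-2 it fell from 35.9, 39.4 and 38.9 to 22.4, 25.4 and 24.3 CPM (-0.66 ± 0.068), and in PANC-1 by less (-0.18 ± 0.054, lost without DMSO or carfilzomib replicate 1).

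The cargo receptors gave 27 calls of a rise (57.4%) and 4 of a fall (8.51%) in 47 tests, beside the pooled 20.8% and 21.1% of all genes. Of these rises, 6 were those of SQSTM1, whose values are uncertain. They include RKO, where its summed rows did not rise. TAX1BP1, which carries ubiquitin-marked aggregates, rose in H-1299 from 136, 128 and 141 to 351, 335 and 367 CPM (1.38 ± 0.049, adjusted p = 2.8e-10). RPMI went from 143, 138 and 128 to 317, 335 and 313 CPM (1.24 ± 0.057), and CAPAN-2 from 239, 235 and 215 to 506, 474 and 488 CPM (1.09 ± 0.058). The groups lay far apart in these lines. H-23 (0.62) and PANC-1 (0.50) rose by less, and RKO (-0.04), DLD-1 (-0.10) and H-929 (0.07) were not called. DLD-1, which was not called, held the highest untreated level, 94.3 CPM per kb against at most 27.1 in the other lines. RKO, with 13.1 CPM per kb, and H-929 were not called either and had the lowest mean untreated levels. A link between untreated level and response was not tested, and the untreated level also enters the fold change.

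CALCOCO2, a receptor for bacteria and damaged mitochondria, had the widest span of log2 fold changes, 1.98, among the 17 genes called in both directions. In RPMI it went from 62.0, 62.7 and 62.0 to 213, 211 and 187 CPM (1.71 ± 0.060, adjusted p = 5.3e-11), and in CAPAN-2 from 62.6, 58.7 and 58.8 to 185, 184 and 196 CPM (1.65 ± 0.056). H-1299 (0.67 ± 0.046) and H-23 (0.20 ± 0.041) rose by less. PANC-1 fell from 262, 258 and 266 to 239, 235 and 235 CPM (-0.15 ± 0.030). The fall in H-929 (-0.28 ± 0.091) was lost without DMSO replicate 1 or 2. CALCOCO2 was lowest without the drug in CAPAN-2 (7.79 CPM per kb) and RPMI (8.41), where it rose most. H-23 had a like level (9.13) and rose by only 0.20. The untreated level also enters the fold change, so the values are not independent. The treated level of 24.7 CPM per kb in CAPAN-2 stayed below the untreated 31.2 of PANC-1.

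OPTN, a receptor for damaged mitochondria, rose in 5 lines, among them RPMI (0.73 ± 0.092) and H-929 (0.52 ± 0.084), where 74.8, 74.5 and 67.9 became 104, 103 and 105 CPM. Its call in H-23 was lost in 3 of the 6 fits. It fell slightly in H-1299 (-0.15 ± 0.046), a call lost without DMSO replicate 3. TOLLIP, an endosomal adaptor, rose in 4 lines, most in H-1299 (0.73 ± 0.084), with a call in CAPAN-2 lost without carfilzomib replicate 3, and was not called in either myeloma line. NBR1, which joins SQSTM1 in aggregates, rose in RPMI (0.41 ± 0.056), CAPAN-2 (0.18 ± 0.055) and RKO (0.17 ± 0.040). It fell in H-929 from 141, 149 and 134 to 101, 113 and 104 CPM (-0.41 ± 0.083). Its calls in RKO and CAPAN-2 were lost in 3 and in 1 of the 6 fits without a library.

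SQSTM1, the best known receptor for ubiquitin-marked aggregates, was split over a row of its own symbol with a median of 19.5 counts and a companion row with a median of 179. In RPMI its own row held 6, 22 and 13 counts in DMSO and 123, 122 and 200 in carfilzomib (3.82 ± 0.31), and in H-929 it held 9, 10 and 14, then 49, 55 and 55 (3.07 ± 0.40). The companion row rose in both, from 33, 57 and 86 to 732, 574 and 788 counts in RPMI and by 3.79 ± 0.69 in H-929. In H-929 it held 37, 189 and 60 counts, then 299, 1663 and 194, so most treated counts lay in 1 library. It was also called higher in H-1299, PANC-1 and CAPAN-2, and in H-23 (3.01 ± 0.66). In H-23 it held 51, 34 and 76 counts, then 76, 77 and 910, so that rise lay mainly in 1 library. In RKO its own row held 17, 8 and 22 counts, then 330, 22 and 161 (3.48 ± 0.69), while the companion row held 646, 861 and 157, then 106, 724 and 111 and was not called (-0.86 ± 0.75). The sum of both rows in RKO had a log2 fold change of -0.30, so no rise of SQSTM1 is claimed there. In the row of its own symbol, H-1299 (2.16 ± 0.40), CAPAN-2 (1.28 ± 0.40) and PANC-1 (0.84 ± 0.27) were also called, and DLD-1 (1.31 ± 0.47) was not. The groups overlapped in CAPAN-2, and the calls in PANC-1 and CAPAN-2 were lost in 3 and in 1 of the 6 fits.

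The multiple myeloma lines were set against the other 6 in the fit of all libraries. Of 39 genes, 13 had a higher and 19 a lower response in the 2 myeloma lines, beside 19.1% and 25.2% of all genes. The error of this contrast is the spread between replicates, so it describes these 2 lines and not myeloma in general. The largest upward differences were those of ATG9B (3.30 ± 0.25), SQSTM1 (1.84 ± 0.45) and ULK2 (1.15 ± 0.39), the last with at most 6 counts in any library of H-929. Downward they were those of PIK3R4 (-1.03 ± 0.047), ATG4A (-0.87 ± 0.070), RUBCN (-0.72 ± 0.045), ATG3 (-0.72 ± 0.048) and ATG4C (-0.68 ± 0.073). Among these, PIK3R4 and ATG3 were called lower in both lines. ATG4A was not called in H-929 (0.07) and rose in RPMI (0.80). ATG4C fell in H-929 (-0.77) and RUBCN in RPMI (-0.40), and neither was called in the other myeloma line. RB1CC1 (-0.00 ± 0.046) and TAX1BP1 (-0.03 ± 0.055) were not called for a difference between myeloma and the other lines. The summed plasma cell markers were lower after the drug, at 3996 to 4092 CPM in H-929 and 1292 to 1503 CPM in RPMI, and their part in these differences was not tested.

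Calls were also compared between the 2 myeloma lines. All 9 genes called higher in H-929 were also called higher in RPMI, which is 34.6% of the 26 called there. Over all genes, 44% of those called higher in H-929 were called higher in RPMI, and these made 38.8% of the calls in RPMI. Of the 10 genes called lower in each line, 4 were the same: ATG2B, ATG3, PIK3R4 and UVRAG, while over all genes the lines shared 58.4% of the falls of H-929 and 49.7% of those of RPMI. A further 5 genes lower in H-929 were higher in RPMI, namely ATG13, TMEM41B, NBR1, CALCOCO2 and STX17, beside 15.4% of all genes lower in H-929. The difference between these 2 lines alone was not tested. H-1299 and CAPAN-2, from lung and pancreas, shared 24 genes called higher, which is 85.7% of the calls in H-1299 and 88.9% of those in CAPAN-2, beside 54.5% and 61.6% over all genes. In each of these lines a larger share of the list than of all genes was called higher, as given above.

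The other genes of the pathway were counted by list. Over all genes in the fit of all libraries, 19.8% were called higher and 23.9% lower on average. Of the 7 genes of the ATG8 family, 4 were called higher on average over the lines and 1 lower. GABARAPL1 led with rises in 6 lines, up to 4.69 in RPMI and 3.05 in H-1299, and MAP1LC3B, whose near copy MAP1LC3B2 may share its reads, rose in the same number of lines, by up to 1.98 in RPMI. GABARAP was higher in 2 lines and lower in 2, with its lowest value in RPMI (-0.49). Of 20 other core and fusion genes, 8 were higher and 3 lower on average, and EI24, a membrane protein of the endoplasmic reticulum, fell in 6 lines, by 1.57 on the log2 scale in RPMI. The 18 other selective receptors split evenly, with 8 higher and 8 lower, among them CALCOCO1, higher in 7 lines, and TEX264, lower in 6. Of the 19 upstream regulators tested, 10 were higher and 5 lower, with TFE3 rising in 5 lines, by up to 1.12 in RPMI.

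Promoter windows of 300 bases, listed in RefSeq for 35 of the 40 genes, were searched on both strands for 4 motifs. The CLEAR E-box CACGTG, the site of TFEB and its relatives, was found in 2 genes, ATG14 and ATG3 (5.71%, beside 7.26% of 35116 promoters of this length). The antioxidant response element TGANNNNGC was found in 15 (42.86%, beside 41.84%), among them ATG9B and CALCOCO2. A heat shock element TTCNNGAA was found in 2, ATG3 and PIK3R4 (5.71%, beside 7.74%), and the ATF4 composite element TGATGNAA in 0 (beside 3.62%). A gene of the list was counted if any of its listed windows held the motif, while the share beside it is over single windows. Genes with 2 listed starts, such as ATG9B, thus had more room for a match. A match is a description of these letters and not of binding.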

How the data were processed

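The values are the counts of reads in each gene that the authors deposited, not normalized. Per the submitters' processing notes, bcl2fastq 2.19, FastQC, Trimmomatic, HISAT2, DESeq2 and the build hg38 were used; the counting program, gene models and strand setting are not given in the sources used here. Each line's 6 libraries were fitted with edgeR 4.0.16 in R 4.3.3 (TMM, filterByExpr, quasi-likelihood F test, Benjamini-Hochberg over all tested genes), and all 48 libraries in 16 groups with a trended dispersion. SE is the log2 fold change divided by the square root of F. CPM uses TMM library sizes within a line, and CPM per kb uses TMM over all 48 libraries. limma 3.58.1 and the Wald test of DESeq2 1.42.0 were alternatives, and the fits were tested on simulated data. Coordinates and exon lengths come from GENCODE 29. Of 33892 rows, 4803 share an identifier with another. All 48 pairs of replicates differed by more than sampling noise (lowest ratio of chi-square to its degrees of freedom, 3.33). The rule named genes called alike in at least 6 lines, the 5 highest and 5 lowest averages, the largest rise and fall per line, and the cargo receptors; the other genes named, and the neighbours of their starts or exons, were chosen with values in view. The genes and lists were chosen with earlier results of these data known.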

Additional observations from a re-analysis of the deposited data

Results flagged for a closer look

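For 17 genes the drug's effect had opposite signs in different lines, with a call in each direction, and the test that the lines differ was called for each in the fit of all libraries (edgeR). The value given is the span of the log2 fold change between the lines with the lowest and the highest value. Among cargo receptors it was 1.98 for CALCOCO2, 0.88 for OPTN and 0.83 for NBR1. In the conjugation and protease genes it was 1.59 for ATG16L2, 1.11 for ATG3, 1.00 for ATG4C and 0.78 for ATG7. For genes of membrane supply it was 1.31 for TMEM41B, 1.17 for VMP1, 1.05 for ATG2B and 0.98 for ATG9A. The remaining spans were 1.27 for ATG13, 1.26 for PIK3R4, 1.19 for RUBCN, 1.08 for WIPI2, 0.79 for STX17 and 0.61 for UVRAG. H-929 held the lowest value for WIPI2, ATG2B, ATG3, ATG4C, ATG13, NBR1, CALCOCO2, UVRAG, TMEM41B and STX17. The share of genes with calls in both directions was close to that of all genes tested in every line, as given above, so this mixture is not particular to the list.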

How the results depend on the processing

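Of 318 counts recomputed under an alternative, 305 stayed within 1.5 times the reported count. With library totals, 7 genes were higher in RKO and 8 lower in H-1299; with no filter, 1 was lower in RKO. Taken as contrasts of the fit of all libraries, the counts were 10 higher and 4 lower in PANC-1 and 18 lower in H-929. Without any 1 library, genes higher in RKO numbered 2 to 4, genes lower in DLD-1 0 to 1, and genes lower in H-1299 3 to 6. With cell lines as units, limma called 0 higher and 0 lower on average, also (chosen after seeing the data) over all genes of the fit of all libraries. There 8 of 39 genes of the list had an unadjusted p under 0.05, beside 3158 of all 22309 genes. The cause of these shifts was not tested. The average of ATG3 was 0.02 without H-929, and SQSTM1 in RKO was -0.30 with both of its rows summed.

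Of 181 calls, 149 were kept in each of the 6 fits without a library of that line. Replicate numbers did not pair the samples (no line had all 3 correlations above 0.1); with a replicate block, 23 genes were higher and 6 lower on average, and no count moved by over 1.5 times. In H-23 and PANC-1, 6 of 6 libraries correlated best with their own number, a hint from the data only. The treated H-929 libraries held the fewest counts, and ATG16L1, SQSTM1 in H-23, ATG9B in H-1299 and ULK2 in H-929 were too low to test.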
